A study of Rattus norvegicus with 12 samples.

Results

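The comparison described here set the islets of rat offspring that met both a diabetic pregnancy and a high-fat weaning diet against those that met neither. It was chosen by the titles of the libraries alone and takes in 6 of the 12 libraries of the series, 3 per group. All animals were Sprague-Dawley rats, and islets were collected at 15 weeks of age. In the first group, GDM-HFS, the dams ate feed rich in fat and sucrose (HFS, 45% fat), which the labels take as a model of gestational diabetes mellitus (GDM), and the pups were weaned onto HFS for 12 weeks. In the second, Lean-LF, lean dams ate a low-fat diet (LF, 10% fat) and the pups were weaned onto LF. Each diet was given to 6 dams from 6 weeks before mating until the end of suckling, with LF-fed sires for all, so that exposure in the womb and exposure through milk cannot be told apart. The remaining groups, Lean-HFS and GDM-LF, met 1 exposure each and are used below only beside GDM-HFS. The labels used here name neither litter nor sex, and p-values therefore measure only the spread between these samples.

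Pancreatic islets are small clusters of endocrine cells scattered in an exocrine gland. Beta cells secrete insulin, alpha cells glucagon, delta cells somatostatin and PP cells pancreatic polypeptide. Making and releasing insulin draws on ribosomes, on folding and quality control in the endoplasmic reticulum (ER), and on mitochondrial ATP, which closes potassium channels when glucose rises. Offspring of diabetic or overfed mothers are studied for lasting changes in these functions.

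The tissue label was checked against defining markers. Both insulin genes together (Ins1 and Ins2) made up 28.8% to 30.8% of the reads outside ribosomal RNA (rRNA) in the 3 Lean-LF libraries and 31.9% to 34.4% in the 3 GDM-HFS libraries (mean 29.9% and 32.8%, exact permutation p = 0.10, two-sided, the smallest that 3 against 3 can give). Gcg, Sst and Ppy were present in every library. Read depth and rRNA overlapped between the groups, while acinar markers and the length measure did not. Reads over genes ranged from 14658004 to 27492858 in Lean-LF and from 11469290 to 24525747 in GDM-HFS. Reads of rRNA made up 11.3%, 30.4% and 1.84% of gene reads in Lean-LF, against 4.34%, 1.84% and 2.55% in the GDM-HFS libraries (p = 0.40 in the same exact permutation test). For 32 markers of acinar cells, which secrete digestive enzymes, the mean log2 level (± SD, n = 3) was 8.95 ± 0.73 in Lean-LF against 10.8 ± 0.54 in GDM-HFS, an exact permutation p of 0.10. The length measure, the median log2 deviation of transcripts under 1000 bases less that of transcripts over 4000 bases, was -0.72, -0.73 and -0.08 in Lean-LF and 0.29, 0.40 and 0.74 for GDM-HFS, again with an exact permutation p of 0.10. Lean-LF 3 thus stood nearer to GDM-HFS than Lean-LF 1 and 2 did in rRNA and in the length measure. GDM-HFS 3, the shallowest of the 6 and the only one of them whose title carries the letter K in place of G (its meaning is not stated), stood furthest out in the length measure and in acinar markers.

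**Figure D1:**
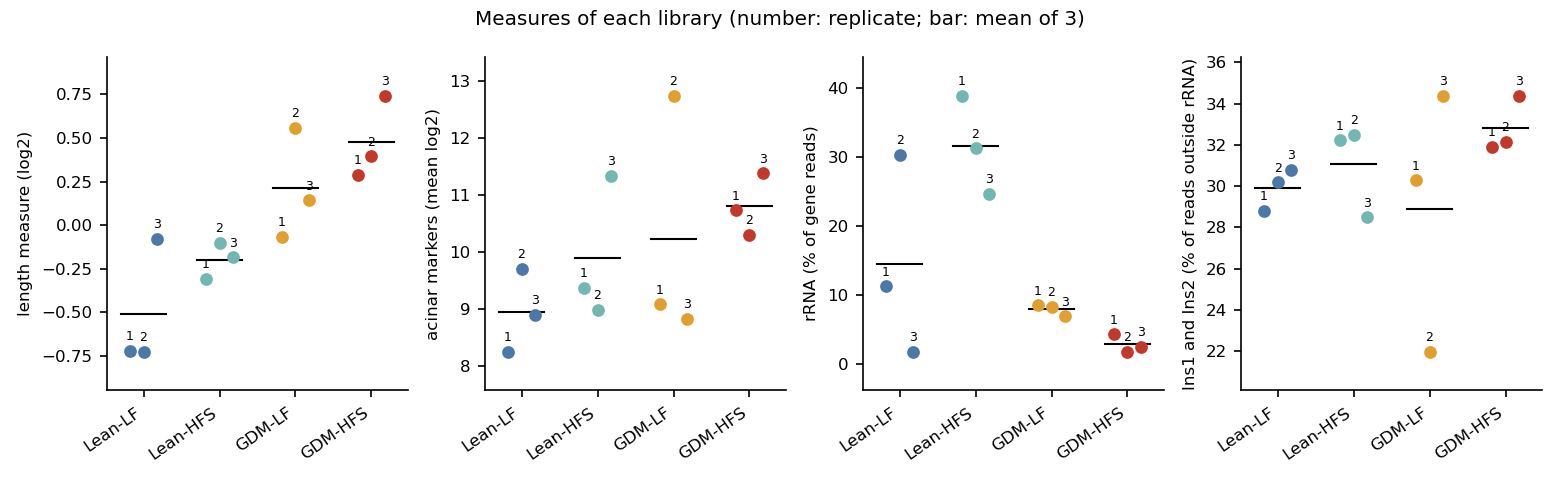
Length measure, acinar marker level, rRNA share and insulin share of the 12 libraries by group, with the replicate number at each point and the group mean as a bar. The 3 GDM-HFS libraries lie above the 3 Lean-LF libraries in the length measure, the acinar level and the insulin share, and Lean-LF 1 and 2 hold more rRNA than any GDM-HFS library.

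Of 12340 genes tested, 306 differed between GDM-HFS and Lean-LF at an adjusted p under 0.05 in limma, which is 2.48% of those tested. In all, 265 genes rose (2.15%) and 41 fell (0.332%). At an unadjusted p under 0.05, 1448 genes were higher (11.7%) and 1293 lower (10.5%). This balance depended on the scaling: the values as deposited, without rescaling between libraries, gave 746 higher and 1683 lower and moved the median log2 difference of all genes from 0.0004 to -0.14. edgeR, which differs in input, test and scaling together, gave 1198 higher and 1577 lower. For all 306 genes the libraries of the groups did not overlap, against 16.0% of all tested genes without overlap and higher in GDM-HFS and 14.6% without overlap and lower. The calls sat close to the threshold, with adjusted p between 0.0276 and 0.0496. They depended on single libraries. Leaving out Lean-LF 1, Lean-LF 2, GDM-HFS 1 or GDM-HFS 3 left 0 genes, leaving out GDM-HFS 2 left 1 (Fga), and leaving out Lean-LF 3 gave 1526. All 306 kept their direction in each of these 6 fits, which the lack of overlap fixed in advance and which adds no support. With edgeR on reads recovered from the values 0 genes passed (lowest adjusted p = 0.0562), although all 306 had an unadjusted p under 0.05 there, and DESeq2 called 1095, 642 higher (6.48% of the 9913 genes it gave an adjusted p) and 453 lower (4.57%), among them 305 of the 306.

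The direction of the difference followed transcript length. Genes that rose had a median transcript length of 673 bases and genes that fell one of 4284 bases, against 2118 bases over all tested genes, and the rank correlation of log2 difference and length across genes was -0.487 (Spearman, a description, since genes are not independent). Of 247 genes shorter than 500 bases 70 rose and 0 fell. Of 1893 genes of 4000 bases or more, 1 rose (Ddc, named for this reason after its value was seen) and 25 fell. With each library's trend on length removed, 0 genes passed (lowest adjusted p = 0.124), while 304 of the 306 kept their direction and 235 of them had an unadjusted p under 0.05. Medians of the main lists for GDM-HFS against Lean-LF are therefore given with and without that trend.

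**Figure D2:**
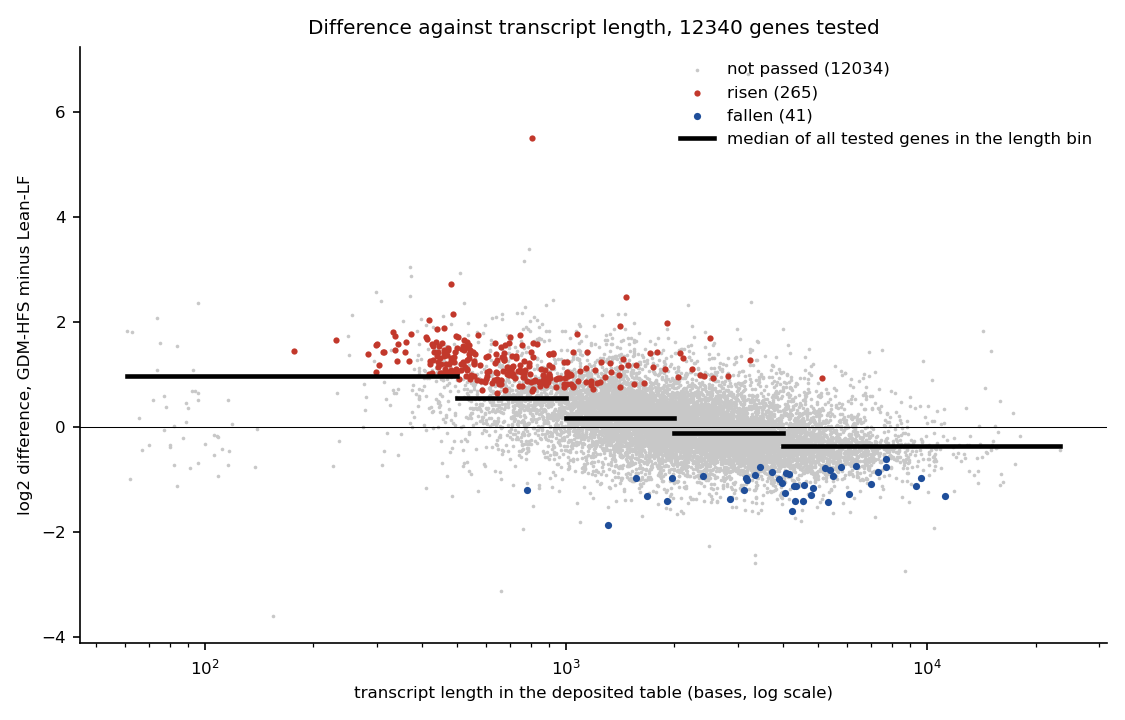
Log2 difference between GDM-HFS and Lean-LF (vertical axis) against transcript length in bases (log scale) for the 12340 tested genes, with the genes that rose in red, those that fell in blue and the median of each length bin as a black bar. The bin medians go down from 0.96 under 500 bases to -0.37 at 4000 bases or more.

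Genes of the cytosolic ribosome made up the largest group that rose among the lists examined. Of 79 ribosomal protein genes tested 54 rose, against 2.15% of all genes, and 0 fell. All 79 were higher in GDM-HFS, 76 of them without overlap between the groups, against 16.0% of all genes. The median log2 difference was 1.34, against 0.0004 over all tested genes, 1.19 without rescaling and 0.50 with the length trend removed. With the length measure as a covariate the median was 0.15, and 0 of the 79 had an unadjusted p under 0.05 in limma. Over all genes 1.2% had such a p in that fit. The length measure is computed from the tested genes, short ribosomal protein genes among them, and did not overlap between the groups. Fits with it as a covariate, here and below, therefore separate it only poorly from the group. Single members are uncertain, because near-identical copies of these genes are spread through the genome. Rps14, a protein of the small subunit (chromosome 18, 55276797 to 55281581, build rn5), stood at 1058, 1238 and 2679.8 in Lean-LF and at 5965, 5824 and 8858 in GDM-HFS, in scaled values, which are depth-scaled signals and not divided by length. The lowest GDM-HFS library was above the highest Lean-LF library, which was Lean-LF 3. Rps14 rose 4.44-fold (log2 2.15 ± 0.40 SE, adjusted p = 0.0276). Rps21 went from 655, 706 and 1422 in Lean-LF to 2646, 2328 and 3951 in GDM-HFS (log2 1.74 ± 0.30, adjusted p = 0.0276), and here too Lean-LF 3 lay between the other Lean-LF libraries and GDM-HFS. Log2 differences of the other leading members were 1.86 for Rpl41, 1.81 for Rps28, 1.74 for Rps20 and 1.72 for Rps23, with adjusted p between 0.0276 and 0.0333. Gas5, a noncoding RNA that hosts small nucleolar RNAs and shares with ribosomal protein genes a pyrimidine-rich start, stood at 8.29, 11.8 and 46.9 in Lean-LF and 74.9, 77.9 and 66.0 in GDM-HFS. It rose 4.13-fold (log2 2.05 ± 0.47, adjusted p = 0.0396), with the Lean-LF libraries spread from lowest to highest more widely than the GDM-HFS libraries.

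The starts of these genes are shown because transcripts that begin with a terminal oligopyrimidine tract are translated under control of the kinase mTOR. The windows run from 15 bases before to 15 bases after the annotated start (RefSeq, build GRCr8), and capitals mark a match to CTTTC or CTCTT on the sense strand, which may overlap each other. A match may lie before the annotated start, as in Gas5, and is then not part of the transcript as annotated.
Rps21 (chr3:187724023-187724052, plus strand): gaacgagccacttcCTTTCtgtgttctccg
Rps23 (chr2:23814502-23814531, plus strand): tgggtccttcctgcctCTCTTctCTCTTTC
Gas5 (chr13:75836948-75836977, plus strand): cggcCTTTCggagctgtgaggcgaagctga
Rps28 (chr7:15311319-15311348, minus strand): gcatcccctgctcacgtgactcctctccgc
Rpl41 (chr7:1563483-1563512, minus strand): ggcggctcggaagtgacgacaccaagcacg
Such a match stood in 38 of the 63 ribosomal protein genes with an entry (60.3%). It stood in 7.0% of all 27457 promoters and in 6.37% of the 9424 tested genes with an entry. Of the 202 genes that rose and had an entry 20.3% had a match, and these 202 include ribosomal protein genes. Among ribosomal protein genes the median log2 difference was 1.32 with a match and 1.40 without, and Rps28 and Rpl41 are among the leading members without one in this window. These counts describe letters in the sequence, and translation was not measured.

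**Figure D3:**
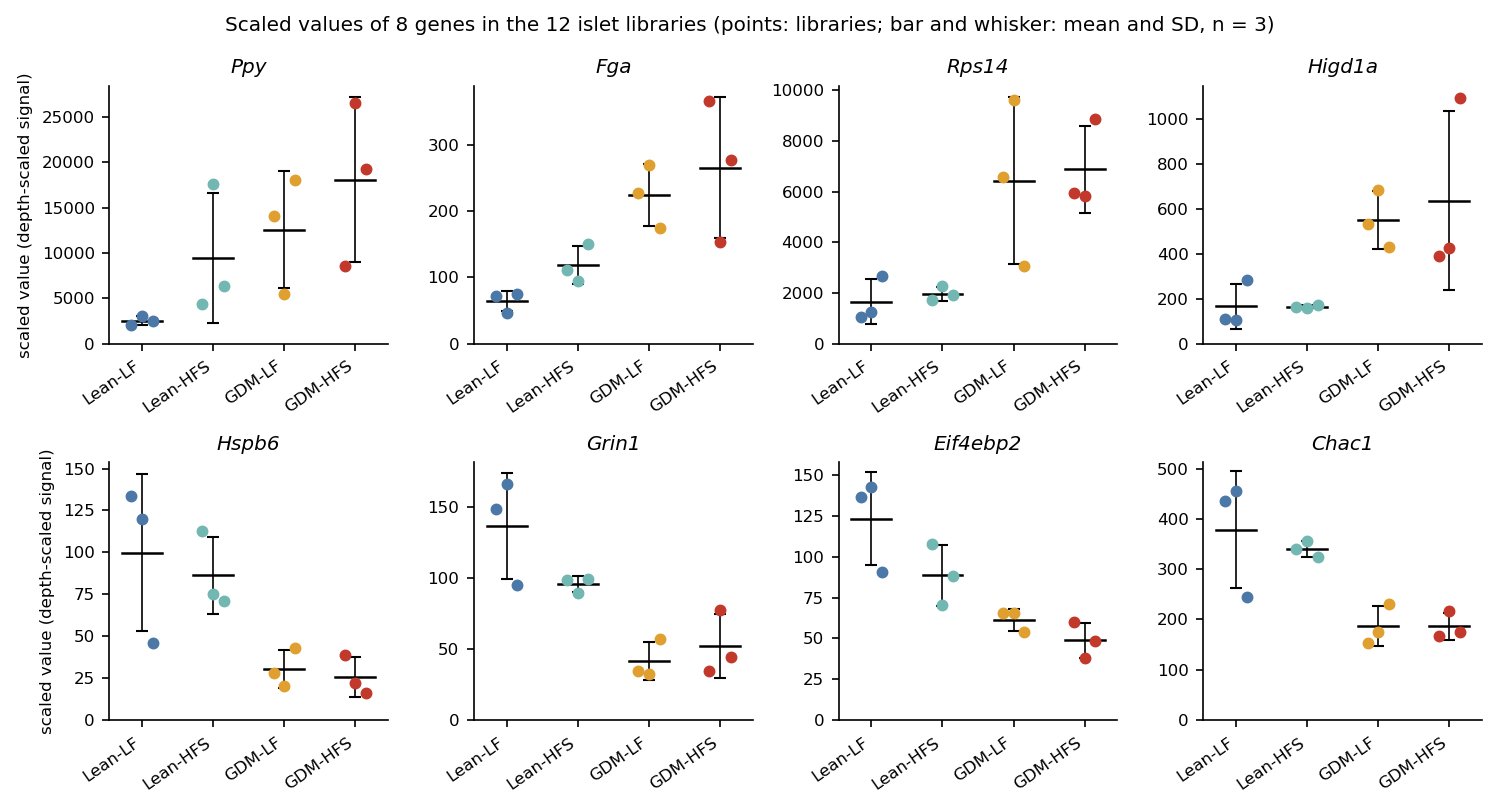
Scaled values of 8 genes in the 12 libraries by group, with each library as a point and mean and SD (n = 3) as bar and whisker. Ppy, Fga, Rps14 and Higd1a lie higher in all 3 GDM-HFS libraries than in any Lean-LF library, and Hspb6, Grin1, Eif4ebp2 and Chac1 lie lower.

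Nuclear genes of the mitochondrial respiratory chain and ATP synthase formed the second such group. Of 72 tested 38 rose and 0 fell, against 2.15% of all genes that rose (median log2 0.86, and 0.23 with the length trend removed). With the length measure as a covariate the median was 0.26. In that limma fit 4 of the 72 were higher at an unadjusted p under 0.05, against 0.624% of all genes. Ndufa12, an accessory subunit of the NADH dehydrogenase complex, went from 73.5, 57.6 and 97.3 in Lean-LF to 189, 195 and 246 in GDM-HFS (log2 1.47 ± 0.21, adjusted p = 0.0276). Cox7c, a small subunit of cytochrome c oxidase, rose by 1.47 ± 0.23, and Atp5j2, of ATP synthase, by 1.58 ± 0.27. Ndufab1, the mitochondrial acyl carrier protein, differs from these in length, with a transcript of 2562 bases. It stood at 161, 171 and 203 in Lean-LF and 322, 293 and 413 in GDM-HFS, rose by 0.93 ± 0.16 (adjusted p = 0.0276), and its difference was 1.01 with the length trend removed. Tomm7, a small subunit of the import channel of the outer mitochondrial membrane, went from 263, 287 and 722 in Lean-LF to 1217, 1165 and 1514 in GDM-HFS (log2 1.76 ± 0.31, adjusted p = 0.0276). In this gene Lean-LF 3 was again the highest Lean-LF library. Higd1a, a hypoxia-inducible protein of the inner mitochondrial membrane, stood at 107, 107 and 283 in Lean-LF and at 390.2, 426 and 1097 in GDM-HFS, where GDM-HFS 3 was the highest. It rose 3.81-fold (log2 1.93 ± 0.40, adjusted p = 0.0324) and kept a difference of 1.71 with the length trend removed.

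Fewer members rose in the other lists. In the proteasome 7 of 31 subunit genes rose, against 2.15% of all genes, and 0 fell (median log2 0.45, and 0.22 with the length trend removed), led by Psmb1 (1.21 ± 0.25), Psmb4 (1.13 ± 0.24) and Psma5 (1.06 ± 0.23). Shfm1, a small protein of the proteasome lid, stood at 180.4, 235 and 518 in Lean-LF and 854, 844 and 1169.8 in GDM-HFS and rose by 1.75 ± 0.32 (adjusted p = 0.0276). Among 31 antioxidant genes 4 rose, against 2.15% of all genes, and 0 fell (median log2 0.24, and 0.06 with the length trend removed). The 4 that rose were Txn1 (thioredoxin, log2 1.19 ± 0.23), Sod1 (the cytosolic superoxide dismutase, 0.91 ± 0.19) and the peroxiredoxins Prdx1 (0.93 ± 0.20) and Prdx5 (0.68 ± 0.16), which reduce peroxides. Sod1 was at 1997, 2005 and 2708 in Lean-LF and at 4031, 4102 and 4365 in GDM-HFS, with a clear gap between the groups. With the length trend removed the differences of Txn1, Sod1 and Prdx5 were 0.15, 0.21 and 0.14. Of 20 hypoxia genes 2 rose, Higd1a and Ankrd37 (1.56 ± 0.30, adjusted p = 0.0295), against 2.15% of all genes. Ldha, lactate dehydrogenase, went from 567, 586 and 823 in Lean-LF to 1068, 1206 and 2549 in GDM-HFS and did not pass (log2 1.19 ± 0.33, adjusted p = 0.0671).

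Among 18 genes of islet hormones and granule peptides 2 rose, Ppy and Pyy, against 2.15% of all genes, and 0 fell. Ppy, which encodes pancreatic polypeptide (chromosome 10, 89831063 to 89832358, build rn5), stood at 2020.0, 2997 and 2498 in Lean-LF and at 8497, 26511 and 19226 in GDM-HFS. All GDM-HFS libraries were above all Lean-LF libraries, and GDM-HFS 1 was the lowest of them. Ppy rose 6.59-fold (log2 2.72 ± 0.56, adjusted p = 0.0324), and its difference was 1.84 with the length trend removed. Pyy, the related peptide YY, went from 1045, 919 and 573 in Lean-LF to 1419.7, 2056 and 4149.8 in GDM-HFS (log2 1.49 ± 0.34, adjusted p = 0.0404). Rbp4, the retinol carrier, which was listed as a marker of delta cells, rose by 1.39 ± 0.33 (adjusted p = 0.0431). These 3 genes were the only ones of 10 delta and PP cell markers to pass in limma, against 2.15% of all genes that rose. In all 8 of the 10 were higher and 2 lower, the latter both without overlap and with an unadjusted p under 0.05 in limma. DESeq2 called 4 higher and 1 lower, against 6.48% and 4.57% of all genes. Sst, somatostatin, stood at 918, 824 and 1056 in Lean-LF and 1666, 1998 and 3081 in GDM-HFS without overlap (log2 1.23 ± 0.33, adjusted p = 0.0662). Gcg, glucagon, stood at 56435, 31639 and 67935 in Lean-LF and 90332, 99527 and 203446 in GDM-HFS, also without overlap (log2 1.30 ± 0.68, adjusted p = 0.276). Neither passed. Of 13 alpha cell markers 0 passed in limma, with 10 higher and 3 lower (median log2 0.48). Without overlap 2 of them were higher and 2 lower. At an unadjusted p under 0.05 in limma 0 were higher and 1 lower, against 11.7% and 10.5% of all genes. DESeq2 called 1 higher and 0 lower, against 6.48% and 4.57% of all genes. For the insulin genes the log2 difference was 0.50 ± 2.63 (Ins1) and 0.39 ± 1.69 (Ins2), where limma takes a wide error from its trend at the highest levels, and Iapp, amylin, differed by 0.57 ± 0.35 (adjusted p = 0.353). With the length trend removed the direction turned in all 3, to -0.44 for Ins1, -0.54 for Ins2 and -0.44 for Iapp. Cck, the gut peptide cholecystokinin, which is in the list of dedifferentiation genes, stood at 18.7, 15.3 and 31.5 in Lean-LF and 70.6, 45.5 and 87.4 in GDM-HFS. It rose by 1.61 ± 0.38 (adjusted p = 0.0429) and was the only one of 11 genes of that list to pass, against 2.15% of all genes that rose. In bulk islets more cells of a type and more RNA per cell cannot be told apart.

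Try4 and Fga were among the largest rises. Try4, a trypsin of acinar cells, had the largest difference of the named genes. It stood at 5.88, 21.8 and 39.9 in Lean-LF and at 433, 683 and 2093 in GDM-HFS (log2 5.52 ± 1.07, adjusted p = 0.0295), but trypsin genes are near-identical copies and Try4 is uncertain as a single gene. It was the only one of 32 acinar markers to pass in limma, and DESeq2 called 2 higher, shares near or below those of all genes (2.15% and 6.48%). Of the 32, 31 were higher, 21 of them without overlap, against 16.0% of all genes (median log2 1.72, and 1.33 with the length trend removed). Prss2 stood at 12.3, 39.7 and 49.0 in Lean-LF and 193, 255 and 623 in GDM-HFS (log2 3.39 ± 0.95, adjusted p = 0.0704), Spink1, the trypsin inhibitor, at 29.7, 105 and 88.8 in Lean-LF and 603, 298 and 645 in GDM-HFS (2.88 ± 0.94, adjusted p = 0.104). Prss1, cationic trypsin, stood at 4557, 13664 and 7224 in Lean-LF and 24311, 17910.2 and 46329 in GDM-HFS, also without overlap (1.83 ± 0.97, adjusted p = 0.282). The summed acinar markers ranged from 33188 to 95248 in Lean-LF and from 128240.0 to 264070.0 in GDM-HFS, so the 3 GDM-HFS libraries held more of them than any Lean-LF library. Summed duct markers went the same way, from 5514 to 8091 in Lean-LF and from 9478 to 12785 in GDM-HFS. Of 14 duct markers 0 passed in limma, with 10 higher and 4 lower. At an unadjusted p under 0.05 in limma 3 were higher and 1 lower, against 11.7% and 10.5% of all genes. DESeq2 called 0 higher and 1 lower, against 6.48% and 4.57% of all genes. The part of acinar and duct markers in the differences was not tested. With the mean acinar level as a covariate 0 genes passed in the whole table, and the median of the ribosomal protein genes was 1.06, that of the oxidative phosphorylation genes 0.87. With the length measure as a covariate these 2 medians were 0.15 and 0.26. Neither measure overlapped between the groups, so these fits separate them only poorly from the group. Fga, the alpha chain of fibrinogen (chromosome 2, 201420956 to 201427005, build rn5), stood at 71.9, 46.3 and 74.1 in Lean-LF and at 366, 154 and 276 in GDM-HFS. It rose 3.93-fold (log2 1.98 ± 0.30, adjusted p = 0.0276), with a transcript of 1909 bases and a difference of 1.93 with the length trend removed. Tmem14a, a small membrane protein, went from 6.68, 4.37 and 8.18 in Lean-LF to 20.1, 18.4 and 35.9 in GDM-HFS (log2 1.77 ± 0.41, adjusted p = 0.0423). Vamp8, a vesicle fusion protein found also in the zymogen granules of acinar cells, rose by 1.05 ± 0.25 (adjusted p = 0.0468). It was the only one of 28 genes of insulin secretion and exocytosis to pass, against 2.15% of all genes that rose. Its difference was 0.01 with the length trend removed.

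Of the 41 genes that fell, 25 had transcripts of 4000 bases or more and 10 transcripts of 2000 to 4000 bases, and 2, Chac1 and Sel1l, were in a list. Hspb6, of the small heat shock proteins (chromosome 1, 90162932 to 90165071, build rn5), stood at 134, 119.6 and 46.2 in Lean-LF and at 38.8, 22.2 and 16.2 in GDM-HFS. Lean-LF 3 lay well below Lean-LF 1 and 2 and only just above GDM-HFS 1. The gene fell 3.64-fold (log2 -1.86 ± 0.42, adjusted p = 0.0396), and its difference was -2.12 with the length trend removed. Slitrk6, a transmembrane protein of neurons and sensory cells, stood at 997, 924 and 532 in Lean-LF and 302, 339.6 and 166 in GDM-HFS and fell by 1.61 ± 0.38 in log2 units (adjusted p = 0.0452). Grin1, the subunit common to NMDA receptors, which pass calcium in response to glutamate, stood at 149, 166 and 94.8 in Lean-LF and 34.7, 77.3 and 44.6 in GDM-HFS. It fell by 1.41 ± 0.31 (adjusted p = 0.0361), with a gap between the groups that was set by Lean-LF 3 and GDM-HFS 2. Lingo3, a leucine-rich repeat membrane protein, went from 87.4, 94.3 and 64.4 in Lean-LF to 27.5, 37.3 and 26.1 in GDM-HFS (log2 -1.41 ± 0.26, adjusted p = 0.0276).

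Eif4ebp2, Lama5 and Tns1 were also among the falls. Eif4ebp2, a repressor that binds the cap-binding factor of translation and is released from it by mTOR (chromosome 20, 32841629 to 32858133, build rn5), stood at 137, 143 and 90.4 in Lean-LF and 59.8, 38.0 and 48.6 in GDM-HFS. It fell 2.49-fold (log2 -1.32 ± 0.24, adjusted p = 0.0276), and at 1680 bases its transcript is shorter than the median, with a difference of -1.43 once the length trend was removed. Lama5, an alpha chain of basement membrane laminin, stood at 132, 246 and 128 in Lean-LF and 56.8, 72.1 and 64.3 in GDM-HFS (log2 -1.31 ± 0.30, adjusted p = 0.0396). Tns1, tensin of focal adhesions, stood at 92.5, 109 and 121 in Lean-LF and 40.6, 49.0 and 41.7 in GDM-HFS (log2 -1.28 ± 0.29, adjusted p = 0.0396). For this gene Lean-LF 3 was the highest and not the lowest of its group. Log2 differences of the other leading falls were -1.43 for Akna, -1.41 for Arhgap31, -1.37 for Plxdc1, -1.29 for R3hdm1, -1.27 for Fam222b, -1.21 for Wbp2, -1.20 for Dusp7, a phosphatase of ERK kinases, and -1.16 for Hipk2, a nuclear kinase. Their adjusted p lay between 0.0333 and 0.0476. Wbp2 is the only gene under 1000 bases that fell, from 149, 189 and 75.7 in Lean-LF to 71.3, 53.3 and 44.0 in GDM-HFS.

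In the ER stress lists single members fell. Chac1, which degrades glutathione and is induced by the transcription factor ATF4 in the PERK branch of the stress response (chromosome 3, 117711150 to 117714352, build rn5), stood at 437, 455 and 245 in Lean-LF and at 167, 217 and 175 in GDM-HFS. The 3 GDM-HFS libraries lay below the lowest Lean-LF library, again Lean-LF 3. Chac1 fell by a log2 difference of 0.97 ± 0.23 (adjusted p = 0.0431). It was the only one of 21 PERK and ATF4 targets to pass in limma, against 0.332% of all genes that fell. The median log2 difference of these targets was -0.23, and -0.28 with the length trend removed. DESeq2 called 4 of them lower and 0 higher, against 4.57% and 6.48% of all genes. Sesn2 stood at 991, 920.4 and 481 in Lean-LF and 349, 392 and 385 in GDM-HFS (log2 -1.02 ± 0.28, adjusted p = 0.0671), Asns, asparagine synthetase, differed by -0.61 ± 0.20 (adjusted p = 0.109) and Herpud1 by -0.76 ± 0.25 (adjusted p = 0.112). None of these 3 passed. Sel1l, the partner of the ubiquitin ligase that clears misfolded proteins from the ER, stood at 3019.5, 2853 and 2298 in Lean-LF and 1658, 1855 and 1356 in GDM-HFS and fell by 0.75 ± 0.18 (adjusted p = 0.0486). It was the only one of 29 genes of the ATF6 branch, chaperones and ER-associated degradation to pass in limma, against 0.332% of all genes that fell. The median log2 difference of that list was -0.18, and -0.07 with the length trend removed. In that list 13 genes were higher and 16 lower, and DESeq2 called 2 higher and 6 lower, against 6.48% and 4.57% of all genes. Higher values without a call stood in Sec61b, a subunit of the ER translocon, with 984, 1016 and 1479 in Lean-LF and 1840.3, 1720.1 and 2091 in GDM-HFS (0.72 ± 0.19, adjusted p = 0.0626), and in Manf, a secreted ER stress factor (0.68 ± 0.19, adjusted p = 0.0717). With the length trend removed both turned, to -0.07 and -0.12. Wfs1, an ER membrane protein needed by beta cells, stood at 409, 395 and 201 in Lean-LF and 152, 120.2 and 158 in GDM-HFS (log2 -1.16 ± 0.30, adjusted p = 0.0600), and the stress sensors Ern1 and Atf6 differed by -0.77 ± 0.22 (adjusted p = 0.0702) and -0.73 ± 0.22 (adjusted p = 0.0858).

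The 250 bases before the start of Chac1 are shown because ATF4 acts through composite elements of the form TGATGNAA, and capitals mark the match found (RefSeq, build GRCr8, both strands searched, the match being on the strand opposite to the gene).
Chac1 (chr3:126795881-126796130, plus strand): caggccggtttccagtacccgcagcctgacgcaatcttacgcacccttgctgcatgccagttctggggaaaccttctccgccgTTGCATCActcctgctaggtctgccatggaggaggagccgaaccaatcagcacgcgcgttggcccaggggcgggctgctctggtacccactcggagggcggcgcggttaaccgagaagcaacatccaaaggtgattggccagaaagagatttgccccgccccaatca
The same letters stood before 4 of the 20 PERK and ATF4 targets with an entry (Chac1, Herpud1, Nupr1 and Trib3). They stood before 3.27% of all promoters in the table and before 1.92% of the tested genes with an entry. The median log2 difference was -0.66 for those 4 genes and -0.22 for the 16 without a match. The ER stress element, CCAAT followed after 9 bases by CCACG, which ATF6 binds together with NF-Y, stood before 8 of 21 genes of the ATF6 list. It stood before 0.0765% of all promoters and before 0.170% of the tested genes with an entry. The median log2 difference was -0.19 for the 8 genes and 0.09 for the 13 without it.

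For the beta cell's own programme no gene passed the test. Of 25 genes that define beta cells or sense glucose 0 rose and 0 fell; 6 were lower and 1 higher at an unadjusted p under 0.05, against 10.5% lower and 11.7% higher of all genes, and the median log2 difference was -0.44, and -0.43 with the length trend removed. It was -0.16 with the acinar level, -0.25 with the log2 rRNA share and 0.36 with the length measure as a covariate, so the direction turned under the last. On the recovered reads edgeR called 0 of them and DESeq2 1 higher and 4 lower, against 6.48% and 4.57% of all genes. Vdr, the vitamin D receptor, stood at 350.2, 307 and 142 in Lean-LF and 78.5, 106 and 56.8 in GDM-HFS without overlap (log2 -1.66 ± 0.42, adjusted p = 0.0541). Ffar1, a fatty acid receptor that amplifies insulin secretion, stood at 315, 283 and 195 in Lean-LF and 138, 138 and 117 in GDM-HFS (-0.98 ± 0.27, adjusted p = 0.0662). Tmem27, a membrane protein of beta cells, had higher values in GDM-HFS, 3435, 2805 and 5242 against 2014, 1407 and 2298 (0.98 ± 0.25, adjusted p = 0.0524). For the transcription factors the differences were -0.78 ± 0.37 (Nkx6-1, adjusted p = 0.235), -0.74 ± 0.25 (Neurod1, adjusted p = 0.113), -1.33 ± 0.43 (Mlxipl, adjusted p = 0.102) and -0.19 ± 0.24 (Pdx1, adjusted p = 0.687). Slc2a2, the glucose transporter, differed by -0.47 ± 0.32 (adjusted p = 0.407), Ucn3 by -0.44 ± 0.28 (adjusted p = 0.375), Glp1r, the incretin receptor, by -0.64 ± 0.31 (adjusted p = 0.241) and Txnip by 0.74 ± 0.69 (adjusted p = 0.563). Errors of this size leave changes of either direction possible for Pdx1, Txnip, Slc2a2, Ucn3, Glp1r and Nkx6-1. With the length measure as a covariate these genes, Neurod1 and Mlxipl all took the opposite sign.

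No gene of insulin and IGF signalling passed. Of the 28 tested 24 were lower, 16 of them without overlap, against 14.6% of all tested genes without overlap and lower. At an unadjusted p under 0.05 in limma 14 were lower (10.5% of all genes). edgeR called 0 and DESeq2 5 lower, against 4.57% of all genes. The median log2 difference was -0.47, -0.31 with the length trend removed and 0.0702 with the length measure as a covariate. Foxo1, the transcription factor that insulin signalling excludes from the nucleus, stood at 175, 179.9 and 101 in Lean-LF and 73.1, 77.5 and 45.7 in GDM-HFS (log2 -1.19 ± 0.30, adjusted p = 0.0566), and Tsc2, the inhibitor of mTOR, at 212, 209 and 144 in Lean-LF and 123, 104 and 107 in GDM-HFS (-0.73 ± 0.20, adjusted p = 0.0684). Igfbp5, an IGF-binding protein, was at 75.1, 60.7 and 57.6 in Lean-LF and 14.2, 31.3 and 15.6 in GDM-HFS (-1.69 ± 0.44, adjusted p = 0.0614). Igf2 and Igf1r differed by -0.68 ± 0.22 (adjusted p = 0.101) and -0.87 ± 0.32 (adjusted p = 0.139). The list for secretion and exocytosis had 18 lower and 10 higher genes of 28, Vamp8 among the latter. The vesicle fusion gene Vamp2 (-0.89 ± 0.35, adjusted p = 0.155) and the potassium channel Kcnh2 (-0.69 ± 0.21, adjusted p = 0.0872) had negative differences. In lipid synthesis 0 of 24 genes passed in limma (8 lower and 2 higher at an unadjusted p under 0.05, against 10.5% and 11.7% of all genes; edgeR 0, DESeq2 3 lower against 4.57%), with Lpin1 at -1.11 ± 0.32 (adjusted p = 0.0770), Agpat1 at -0.78 ± 0.24 (adjusted p = 0.0880) and Srebf1 at -0.69 ± 0.27 (adjusted p = 0.154).

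Immune and vascular lists gave no call either. Interferon response genes had a median log2 difference of 0.58 and 0.47 with the length trend removed, but of -0.37 with the acinar level and -0.70 with the length measure as a covariate. In limma 0 of 33 passed and 7 were higher at an unadjusted p under 0.05 (11.7% of all genes); edgeR called 0 and DESeq2 2 higher (6.48% of all genes), with Ifi35 at 63.6, 67.2 and 110.4 in Lean-LF and 124, 142 and 163 in GDM-HFS (0.86 ± 0.24, adjusted p = 0.0675) and Psmb10, an immunoproteasome subunit, at 0.95 ± 0.29 (adjusted p = 0.0877). Ccl2, a chemokine that attracts monocytes, stood at 54.0, 100 and 157 in Lean-LF and 151, 346 and 892 in GDM-HFS, with overlap between the groups (1.91 ± 0.85, adjusted p = 0.208). Endothelial markers had a median of -0.65 and -0.57 with the length trend removed (0 of 20 passed in limma, 5 lower at an unadjusted p under 0.05 against 10.5% of all genes; edgeR 0, DESeq2 3 lower against 4.57%). Kdr, the main receptor for vascular endothelial growth factor, stood at 215, 162 and 175 in Lean-LF and 59.5, 124 and 39.4 in GDM-HFS (-1.44 ± 0.37, adjusted p = 0.0551), Eng at 253, 219 and 162 in Lean-LF and 76.9, 148 and 73.5 in GDM-HFS (-1.13 ± 0.30, adjusted p = 0.0656) and Cdh5, the cadherin of endothelial junctions, at 136, 109 and 75.6 in Lean-LF and 35.9, 63.0 and 34.7 in GDM-HFS (-1.26 ± 0.38, adjusted p = 0.0840). GDM-HFS 2 was the highest GDM-HFS library in all 3. Macrophage markers had a median of -0.46 (-0.77 with the length trend removed), which went from -1.14 to 0.70 when single libraries were left out. The median was 0.02 with edgeR and 0.04 with DESeq2, and in limma 0 of 20 passed. Summed, these markers ranged from 324 to 746 in Lean-LF and from 63.1 to 827 in GDM-HFS. In GDM-HFS 3 the complement gene C1qb was at 0 and Csf1r, the receptor for a macrophage growth factor, at 3.48, against 33.9, 47.2 and 59.9 and 29.7, 40.2 and 40.2 in Lean-LF. Summed markers of T and B lymphocytes ranged from 20.0 to 33.7 in Lean-LF and from 23.7 to 35.6 in GDM-HFS.

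**Figure D4:**
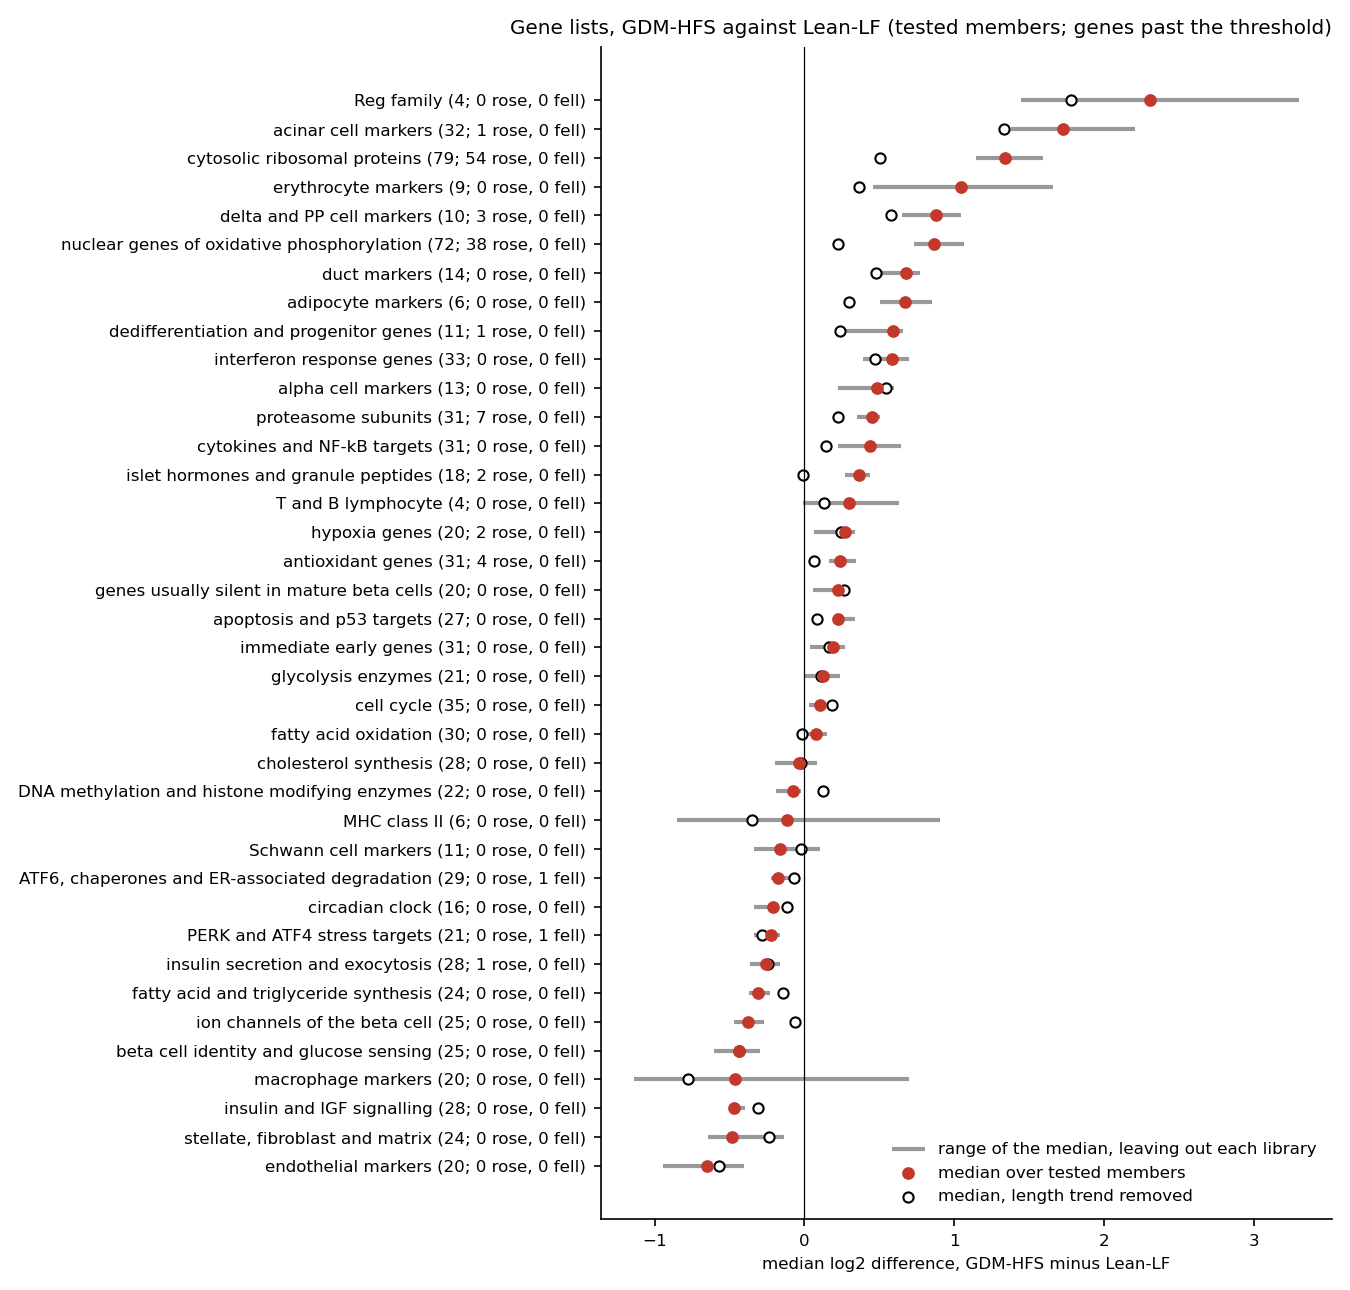
Median log2 difference (GDM-HFS minus Lean-LF) of the tested members of 38 gene lists (red), the same with the length trend removed (open) and the range of the median when each of the 6 libraries is left out (grey), with the number tested and the genes that rose or fell in brackets. Ribosomal protein and oxidative phosphorylation genes lie to the right with 54 and 38 rises, and removing the length trend brings their medians to 0.50 and 0.23.

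Each exposure alone was measured against the same Lean-LF libraries, so the 3 sets of differences share their controls and are given side by side only. The weaning diet alone (Lean-HFS against Lean-LF) gave 0 called genes, with 269 at an unadjusted p under 0.05 (2.18%), and a GDM dam alone (GDM-LF against Lean-LF) gave 195 (1.58%), with 3279 at an unadjusted p under 0.05 (26.6%), against 2741 (22.2%) for both exposures. The library measures also differed between these groups. The length measure was -0.72, -0.73 and -0.08 in Lean-LF, and -0.31, -0.10 and -0.18 in Lean-HFS. It was -0.07, 0.56 and 0.14 in GDM-LF, and 0.29, 0.40 and 0.74 in GDM-HFS. Reads of rRNA made up 24.71% to 38.98% of gene reads in Lean-HFS and at most 8.55% in GDM-LF. The differences below keep the length trend, and its part in their order was not tested. Medians of the ribosomal protein genes were 0.37 for diet alone, 1.14 for the dam alone and 1.34 for both. For the oxidative phosphorylation genes they were 0.25, 0.54 and 0.86. Ppy differed by 1.67, 2.18 and 2.72 in the same order, and its Lean-HFS and GDM-LF libraries stood at 4388, 17598 and 6342 and at 14082, 5480.5 and 18081. Rps14 differed by 0.36, 1.93 and 2.15, Higd1a by 0.14, 1.86 and 1.93, and Hspb6 by -0.10, -1.61 and -1.86. Sod1 differed by 0.22 and 0.10 for the single exposures and by 0.91 for both. Arhgap31, with -0.36, -0.38 and -1.41, and Tns1, with -0.57, -0.42 and -1.28, had smaller differences under each exposure alone than under both. Try4 differed by 2.00, 2.78 and 5.52. Sod1, Arhgap31, Tns1 and Try4 are reported as genes that passed for both exposures. Smaller differences under each exposure alone follow in part from that choice.

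**Figure D5:**
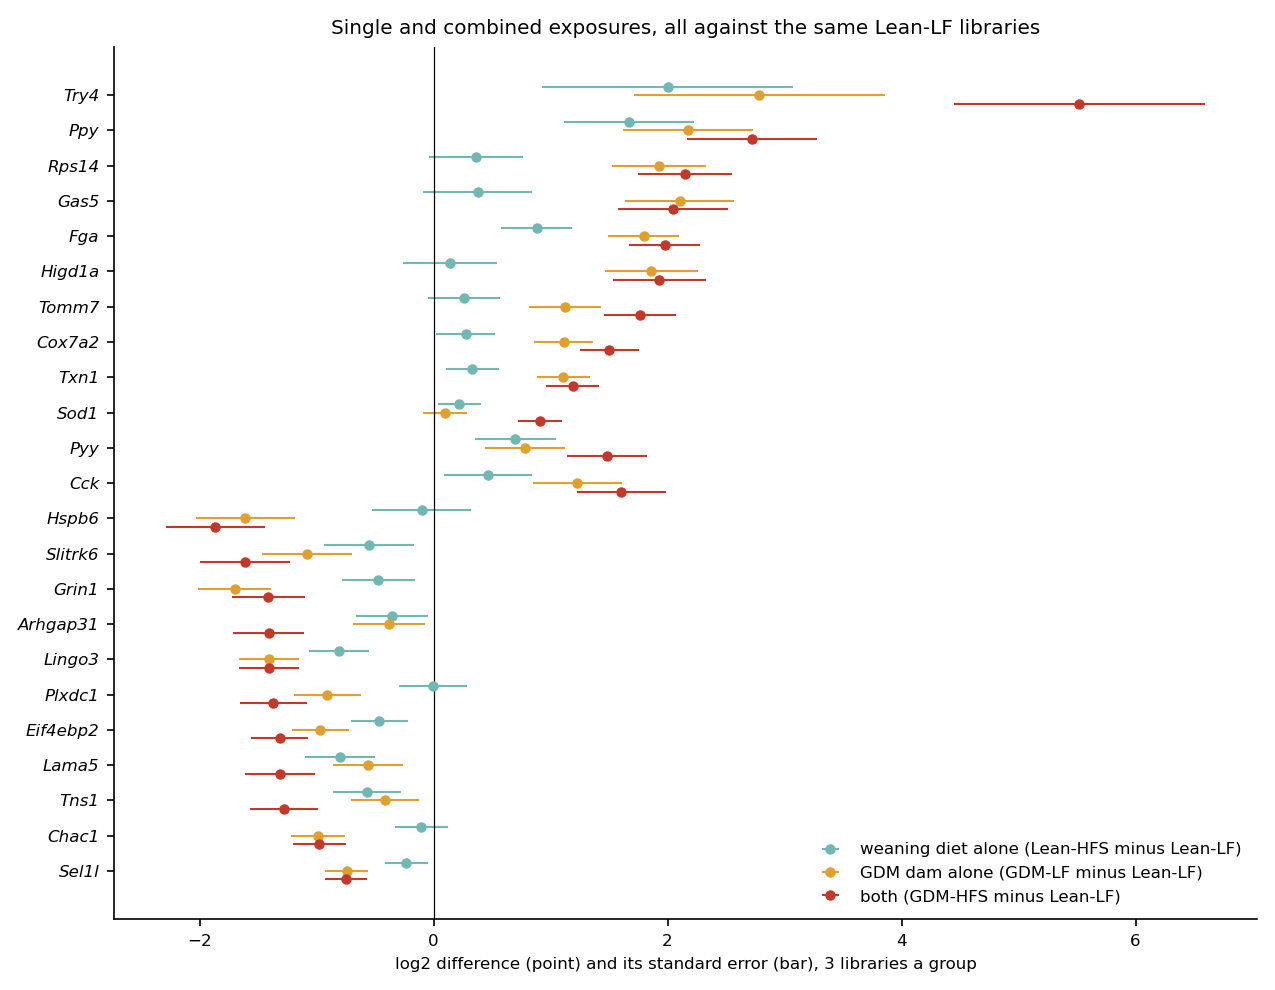
Log2 difference from Lean-LF (point) and its standard error (bar) of 23 genes for the HFS weaning diet alone, a GDM dam alone and both, 3 libraries a group. The differences for both lie near those for the dam alone in Gas5, Higd1a, Hspb6, Chac1 and Sel1l, and further out in Try4, Sod1, Pyy, Arhgap31, Lama5 and Tns1.

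Whether both exposures together departed from the sum of each alone was tested directly on the log2 scale. No gene passed in limma (730 at an unadjusted p under 0.05, 5.92%), nor with edgeR or DESeq2 on the recovered reads. The 5 genes of lowest p all had an adjusted p of 0.784. Pcdhb6, a protocadherin with few reads, stood at 7.75, 6.11 and 4.34 in Lean-LF, 0.900, 0 and 0 in Lean-HFS, 2.65, 0.846 and 0.878 in GDM-LF and 4.29, 3.67 and 5.21 in GDM-HFS (departure 3.68 ± 0.65, unadjusted p = 6.71e-05). Its libraries with 1 exposure all lay below those with both or none. Departures were -1.55 ± 0.35 for Eif1, a factor of start codon selection, 1.88 ± 0.43 for Slc45a1, -1.26 ± 0.30 for Ube2a and -1.09 ± 0.27 for Ptpn12. For the leading genes the departure was -1.13 ± 0.79 in Ppy, 0.73 ± 1.52 in Try4, 0.59 ± 0.26 in Sod1 and -0.67 ± 0.43 in Arhgap31.

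GDM-HFS was also set against each single exposure. Against GDM-LF, which by design differs in the weaning diet alone, 0 genes passed in limma (1188 at an unadjusted p under 0.05, 9.63%). edgeR also called 0 and DESeq2 33, and leaving out GDM-LF 3 gave 40 in limma. Against Lean-HFS, which by design differs in the dam alone, 1 gene passed in limma (0.0081%, with 1758 at an unadjusted p under 0.05). edgeR also called 1 and DESeq2 268. The gene that passed in limma was Anks1b, a scaffold protein of synapses with ankyrin repeats, which was named for this reason after its value was seen. It stood at 50.8, 50.4 and 59.4 in Lean-HFS and 128, 164 and 195 in GDM-HFS (log2 1.57 ± 0.20, adjusted p = 0.0266), and at 79.7, 92.1 and 116 in Lean-LF and 148, 146 and 132 in GDM-LF. All 6 libraries of offspring of GDM dams were above all 6 of offspring of lean dams. The call was lost without any one of the Lean-HFS libraries and without GDM-HFS 2 or GDM-HFS 3.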

How the data were processed

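RNA from hand-picked islets was depleted of ribosomal RNA and made into stranded libraries, per the labels' protocols. The submitters' processing notes name STAR 2.5.1b, HOMER 4.9 and DESeq2, and per the file headers the deposited table holds HOMER gene values on build rn5. The header calls them FPKM, but the deposited values are a depth-scaled signal that was not divided by length: they are whole multiples of 1 read in 100.0% of values up to 1000 reads (tolerance 0.1). Reads were recovered by that step. The command in the header lists the libraries of a group in another order than the column names, which were followed here; groups are the same in both, replicate numbers may not be. Both strands were counted per the file headers, so overlapping and antisense genes cannot be told apart.

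Values were rescaled by median ratios between libraries, and the test took in the 12340 of 17407 genes whose mean was at least 1. Differences are on the log2(value + 1) scale and understate changes of low genes. All 12 libraries, 3 in each of 4 groups, entered 1 limma fit (limma 3.58.1, R 4.3.3, mean-variance trend) with Benjamini-Hochberg adjustment over all tested genes and a threshold of 0.05. A gene rose or fell only if it passed. edgeR 4.0.16 and DESeq2 1.42.0 on recovered reads were alternatives. The length trend was a lowess curve (span 0.3) on log2 length in each library. On simulated data the limma fit recovered 54% of 2-fold and 99% of 4-fold changes (100 genes each among 12340) with 6 false calls. The simulated reads had a fixed dispersion of 0.05, no trend on length and no differences in acinar or rRNA content between libraries. The simulation therefore gives no rate of false calls for the real libraries, which differ in these measures.

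Named genes were the 15 largest rises and 15 largest falls among called genes with a mean of at least 10, up to 6 genes of lowest p in each of 38 lists, a fixed set of islet genes, and the 5 genes of lowest p for additivity; others are said to be chosen after their values were seen. Some genes that the rule names are not reported here. The members and lists were chosen with earlier results of these data known. Symbols of 16432 genes were matched by accession to RefSeq, and 47 of 984 list genes were not matched. Promoters come from RefSeq build GRCr8, and nothing was converted between builds.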

Additional observations from a re-analysis of the deposited data

How the results depend on the processing

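The number of genes called in GDM-HFS against Lean-LF, 306 in limma, was 309 with a pseudocount of 0.5, 89 without a filter on low values, 203 with only the 6 libraries of both groups, and 1095 with DESeq2. It was 0 on the values as deposited, with the length trend removed, with the acinar level as a covariate, without a mean-variance trend, and with edgeR; unadjusted p under 0.05 held for 2429, 1772, 1956, 2568 and 2775 genes in this order. It was also 0 with the length measure (148) or the log2 rRNA share (965) as a covariate, both added after seeing the data. Leaving out each library gave 0 to 1526. Against GDM-LF the count of 0 became 33 with DESeq2 and 0 to 40 with libraries left out, and against Lean-HFS the count of 1 became 2 on the values as deposited, 268 with DESeq2 and 0 to 1 with libraries left out. Departure from additivity gave 0 under all its alternatives. The cause of these shifts was not tested.

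Replicate numbers did not pair the libraries: deviations of same-numbered libraries correlated at -0.064, -0.091 and -0.009. With the number as a replicate block 234 genes were called (207 higher, 27 lower), and 2 against Lean-HFS.

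Of 104 named genes, 36 rose and 20 fell. With the length measure as a covariate, 21 took the opposite sign, all with an adjusted p near 1: Asns 0.20, Ccl2 -1.64, Foxo1 0.13, Gcg -0.51, Glp1r 0.72, Igf1r 0.49, Igf2 0.0516, Lpin1 0.0417, Mlxipl 0.22, Neurod1 0.36, Nkx6-1 0.82, Pdx1 0.17, Prss1 -0.73, Psmb10 -0.24, R3hdm1 0.16, Slc2a2 0.44, Slitrk6 0.12, Txnip -1.04, Ucn3 0.54, Vamp2 0.49 and Vamp8 -0.15. With the acinar level as a covariate Pdx1 was 0.0689, Prss1 -0.21, Slc2a2 0.0108 and Txnip -0.54. Prss1 is itself among the markers that make up that level. With the length trend removed Iapp was -0.44, Ins1 -0.44, Ins2 -0.54, Manf -0.12 and Sec61b -0.0724. C1qb went from -2.49 to 0.60 with libraries left out, the latter without GDM-HFS 3. Of the 56 that passed, 38 lost the call without a filter, 23 with 6 libraries and 15 with the block. Library measures kept their direction whichever library was left out. For all of them but the rRNA share the lack of overlap fixed this in advance. With 3 libraries a group no exact test can go below p = 0.10.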

Other observations

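Some genes rose although their transcripts were longer than the median of all tested genes; they were chosen after their values were seen. Ddc, the decarboxylase that makes dopamine and serotonin, has a transcript of 5117 bases and stood at 97.6, 80.8 and 102 in Lean-LF and 189, 157 and 189.9 in GDM-HFS (log2 0.93 ± 0.22, limma adjusted p = 0.0448, and 1.27 with the length trend removed). Slirp, which stabilises mitochondrial messenger RNA, stood at 132, 134 and 209.7 in Lean-LF and 289, 306 and 312 in GDM-HFS (log2 0.96 ± 0.18, adjusted p = 0.0276). Taf5, a subunit of the general transcription factor TFIID, rose by 1.27 ± 0.26 (adjusted p = 0.0324). In the fit with the length trend removed, Slirp and Hdhd2 were among the 7 genes that shared its lowest adjusted p of 0.124, together with Fga, Ndufab1, Eif4ebp2 and Lingo3.

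Proteins of the mitochondrial ribosome, a group formed by gene symbol after the data were seen, had 14 rises and 0 falls among 71 tested genes. Over all genes 2.15% rose. The median log2 difference of the group was 0.57, and its median with the length trend removed was not computed. Entries with a symbol in lower case, such as mrpl9 and mrpl24, which did not pass, were not in the group. Mrpl41 stood at 146, 124 and 199 in Lean-LF and 320.0, 337 and 300.0 in GDM-HFS (log2 1.05 ± 0.20, adjusted p = 0.0293). Mrps21 rose by 1.11 ± 0.22 (adjusted p = 0.0324), and the differences were 0.41 and 0.20 with the length trend removed. Some long transcripts of transcriptional regulators, also chosen after their values were seen, fell: Med1, a subunit of Mediator (5794 bases), by 0.76 ± 0.18, and Sp1, a factor of GC-rich promoters (7709 bases), by 0.61 ± 0.15. With the length trend removed these were -0.39 and -0.19. Phactr1, chosen likewise, a regulator of actin and protein phosphatase with a shorter transcript (1973 bases), fell by 0.97 ± 0.23, and kept a negative difference with the trend removed. Reg3g, a secreted lectin of the injured pancreas, stood at 3.74, 65.9 and 26.2 in Lean-LF and 443, 107 and 131 in GDM-HFS and did not pass (log2 3.17 ± 1.33, adjusted p = 0.184).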
